A study of Drosophila melanogaster with 2 samples.

Results

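The genes described here encode subunits of Mediator and TBP-associated factors (TAFs), which assemble RNA polymerase II at promoters. They were chosen by symbol: each protein-coding gene of the main chromosome arms whose name starts with MED or Taf followed by a digit. This gave 40 of 13945 protein-coding genes, 25 of them MED genes and 15 Taf genes. Their promoters were searched for peaks of Klumpfuss (Klu), a DNA-binding zinc finger protein related to EGR and WT1, in chromatin immunoprecipitation with sequencing (ChIP-seq). The chromatin came from whole Drosophila melanogaster embryos collected over 0 to 24 h from the strain klu-GFP, which carries a klu insertion expressing a fusion with enhanced GFP, and an antibody against GFP was used. All samples belong to 1 group of 2 biological replicates with the same insertion, so no comparison between conditions was possible, and control libraries were not analysed here. No source used here names the promoter that drives the fusion. The sex of the embryos was not recorded and all embryonic ages were mixed. In whole embryos, binding in few cells and weak binding in many cells cannot be told apart.

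Mediator is a large complex that carries signals from DNA-bound activators to RNA polymerase II. Its head and middle modules contact the polymerase, its tail module contacts activators, and a separable kinase module regulates it. The TAFs join the TATA-binding protein (TBP) in the general factor TFIID, which recognises core promoters and starts the assembly of the initiation complex. Some TAFs also belong to the coactivator complex SAGA. Mediator and TFIID as complexes are needed in nearly all cells, which need not hold for each gene counted here.

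The summits near these genes lay in A- and T-rich DNA upstream of the start, as the following stretches show. The stretches reach 50 bp to either side of the summit for genes with a peak in the series list, in dm6 coordinates, read 5' to 3' on the strand of the gene. The first 4 carry the strongest of the printed peaks, all found in both replicates. MED4 represents a peak listed in replicate 1 alone, and Taf2 and Taf4 represent peaks listed in replicate 2 alone. Capitals mark TATAAA or GAGAG on either strand, and runs of at least 7 A or T. All bases were read from the RefSeq genome, release 6.
MED27, chr3R:5654946-5655046, plus strand: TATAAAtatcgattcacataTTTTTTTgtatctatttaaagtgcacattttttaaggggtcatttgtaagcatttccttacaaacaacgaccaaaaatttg
MED17, chr3R:18188928-18189028, plus strand: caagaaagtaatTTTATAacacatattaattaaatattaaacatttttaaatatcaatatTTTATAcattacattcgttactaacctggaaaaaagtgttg
MED7, chr3R:10761060-10761160, minus strand: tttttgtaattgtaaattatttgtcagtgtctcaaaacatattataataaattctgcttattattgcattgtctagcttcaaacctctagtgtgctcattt
MED30, chr3L:654162-654262, minus strand: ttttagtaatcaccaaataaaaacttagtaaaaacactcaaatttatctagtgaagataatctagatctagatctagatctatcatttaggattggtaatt
MED4, chr3L:7250580-7250680, minus strand: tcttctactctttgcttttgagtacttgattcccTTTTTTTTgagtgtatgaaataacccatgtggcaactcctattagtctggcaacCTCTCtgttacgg
Taf2, chr3L:9888756-9888856, minus strand: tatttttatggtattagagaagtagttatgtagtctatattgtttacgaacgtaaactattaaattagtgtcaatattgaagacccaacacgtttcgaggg
Taf4, chr3L:16113579-16113679, plus strand: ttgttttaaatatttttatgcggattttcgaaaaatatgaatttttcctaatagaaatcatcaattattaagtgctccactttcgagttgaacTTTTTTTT

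In the MED27 window, TATAAA stood at the upstream edge, with a run of T downstream of it. The MED17 window held TATAAA at 2 places, both on the strand opposite to the gene. No searched motif lay in the windows of MED7, MED30 and Taf2. In MED30 the 6-base unit AGATCT occurred 3 times, and of 1795 summits at protein-coding starts only this 1 had as many, a feature noticed after the sequence was read. GC content in these windows was 26.7% for MED27, 18.8% for MED17, 26.7% for MED7, 24.8% for MED30, 39.6% for MED4, 30.7% for Taf2 and 23.8% for Taf4.

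The main peak list was the longer of the thresholded lists of the series, derived from both replicates and called the pooled list, with 3087 peaks on the main arms. A gene was counted when at least 1 summit fell no more than 1 kb from any of its annotated starts, in either direction. Of the 40 Mediator and TAF genes, 12 had a peak (30%), against 16.1% of all protein-coding genes. By family, 7 of 25 MED genes (28%) and 5 of 15 Taf genes (33.3%) had one. No test was made of these shares, since the genes were chosen with earlier results of these data known. Among genes with a single annotated start, 10 of 35 Mediator and TAF genes had a peak (28.6%) against 12.2% of all such genes. Of the 4 Mediator and TAF genes on the X chromosome none had a peak, where the share over all genes was 15.2%. The 2 on chromosome 4, MED26 and Taf3, had none, where the share over all genes was 1.25%.

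**Figure D1:**
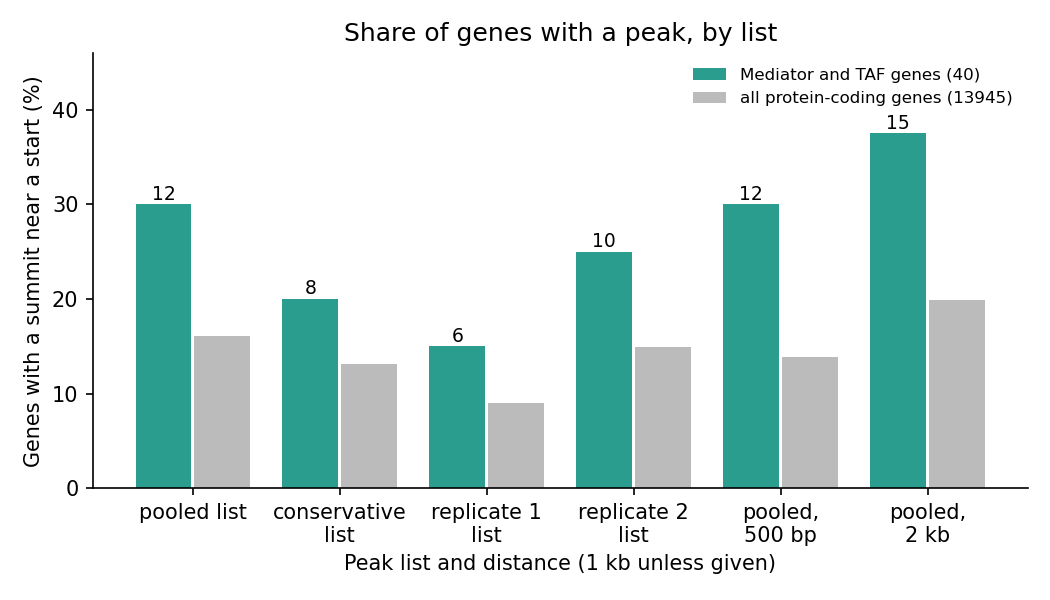
Share of genes with a summit near a start (vertical axis, percent) for the Mediator and TAF genes and for all protein-coding genes, in each peak list and at each distance, with the number of Mediator and TAF genes above its bar. The green bar is taller than the grey one throughout, with 12 genes in the pooled list and 6 in the list of replicate 1.

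The count depended on the list more than on the distance. Within 500 bp of a start the same 12 genes had a peak, against 13.9% of all genes. Only the outermost start of each gene gave 12 (14.5% of all genes), and so did the list without peaks that overlap a stronger one (16.1%). The distance of 2 kb gave 15 genes (37.5%) against 19.9%. In the shorter conservative list of the series 8 genes had a peak (20%) against 13.1%, of which 7 were among the 12 and the other was MED8. The strongest pooled peak overlapped one in the conservative list for 58.3% of the 12 genes, against 78.1% of all protein-coding genes with a peak. The list of replicate 1 alone, with 1511 peaks on the main arms, gave 6 genes (15%) against 8.96%. That of replicate 2 alone, with 2561 peaks, gave 10 genes (25%) against 14.9%. Peaks above the median signal of the pooled list gave 9 genes (22.5%) against 10.5%. Counting a peak only for the gene with the nearest start gave 8 genes (20%) against 11.5%.

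The TAF genes lost most between lists. Taf5 was the only one of 15 Taf genes with a peak in the conservative list (13.1% of all genes) and in the list of replicate 1 (8.96%), so the Taf share lay below that of all genes in both. By contrast, the list of replicate 2 held peaks at 4 of the 15, Taf2, Taf4, Taf5 and Taf11, a share above the 14.9% of all genes. Of the 7 MED genes with a pooled peak, the list of replicate 1 kept 5 and that of replicate 2 kept 6. Out of 25 MED genes, these counts stand against 8.96% and 14.9% of all genes. For MED genes, 57.1% of strongest peaks were in both lists, 14.3% in replicate 1 alone and 28.6% in replicate 2 alone. Over all protein-coding genes with a peak these were 49.5%, 4.73% and 34.6%, so replicate 2 kept more peaks in general. No test was made between the families.

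All 12 summits lay upstream of the nearest start of their gene, at 26 to 252 bp, with a median of 113 bp. Over all 2243 protein-coding genes with a peak the median was 177 bp and 15.8% of the strongest summits lay downstream of the nearest start. For Taf4 and Taf7 the summit also lay inside the gene, 417 and 213 bp downstream of an outer start and in an intron. Of these strongest summits, that of MED31 was the farthest, at 252 bp, and a weaker second summit at Taf2, at 324 bp, was the farthest of all inside the limit of 1 kb. The nearest ones outside it were at 1147 bp from Taf10 (signal 78.3), at 1192 bp from its neighbour Taf10b, the same peak, and at 1423 bp from Taf12 (signal 283). The Taf12 peak lay 151 bp from a start of CG18476. Both Taf10 genes had a second peak within 2 kb, at 1911 and 1866 bp, with a signal of 234 and 254 bp from a start of aph-1.

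**Figure D2:**
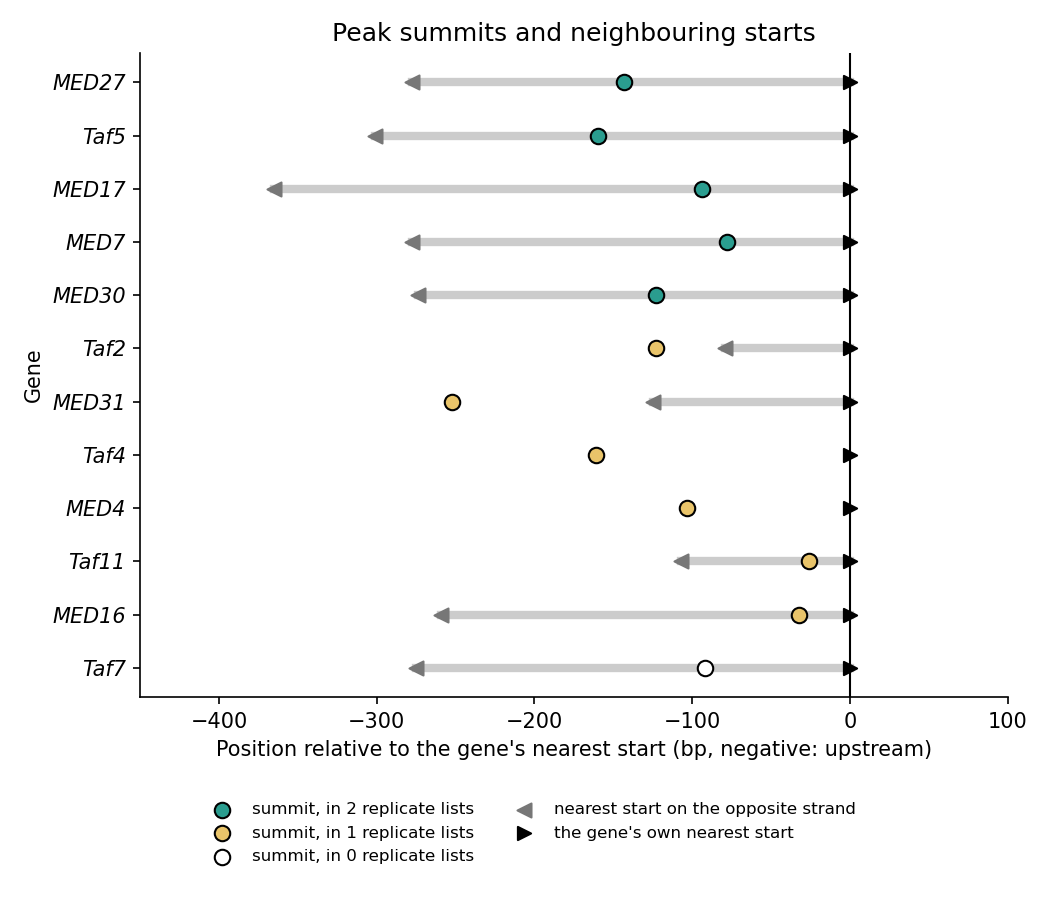
Position of the strongest peak summit of the 12 Mediator and TAF genes with a peak, in bp from the gene's nearest start (horizontal axis, negative values upstream), with the nearest start on the opposite strand within 1 kb where there is one. Circles are coloured by the number of replicate lists that hold the peak, and every circle lies left of 0, at 26 to 252 bp.

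Most of these genes lie close to the start of a gene on the other strand. A start of another protein-coding gene lay within 1 kb for 31 of the 40 genes (77.5%) and for 42.9% of all protein-coding genes. Of those 31 genes, 11 had a peak (35.5%), against 25.5% of all genes with such a neighbour. Of the other 9, MED4 alone had a peak (11.1%), against 9.01% of all genes without one. Crowding of starts moved with the count, and its part in the result was not tested beyond this split. In 8 of the 12 genes (66.7%) the summit lay between both starts, upstream of each, which held for 44.4% of all genes with a peak. Only genes with an opposite-strand start within 1 kb of the start nearest the summit could be counted so. These were 10 of the 12 (83.3%) and 1350 of all 2243 (60.2%), so the 2 shares are not on the same footing. The same peak lay within 1 kb of another protein-coding gene for 10 of the 12, and for 1416 of the 2243 protein-coding genes with a peak. These genes are also short. The median length was 1762 bp for the 12 with a peak, against 3394 bp for all protein-coding genes with a peak. It was 1246.5 bp for the other 28 and 2166 bp for all protein-coding genes.

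The neighbouring genes were as follows. MED27 and elm had starts 278 bp apart, and the summit lay 143 bp from the one and 135 bp from the other. MED17 was paired with CG12321 (365 bp), MED7 with the condensin gene Cap-H2 (278 bp) and MED30 with the DNA polymerase gene Rev1 (274 bp). Taf5 was paired with the peroxisome gene Pex6 (301 bp), Taf11 with und (107 bp), MED16 with CG11170 (259 bp) and the inner start of Taf7 with EMC1 (275 bp). Near Taf2 and MED31 the summit lay inside the transcribed part of the partner, 44 bp downstream of a start of the calpain gene CalpB and 127 bp downstream of a start of CG9775. MED31 shares its start with slx1, so a peak there belongs to both annotations. For MED27, Taf5, Taf2 and MED31 the partner's start was nearer to the summit than their own.

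Among the Mediator genes with a pooled peak, signals were highest at MED27, MED17 and MED7. The signal is the authors' value per peak, has no stated unit, and is compared only within a list. For a replicate it was read from the ranked list, which holds all candidates, taking among those that overlap the one whose summit was closest. MED27, a subunit that lies between head and tail in human Mediator, had a pooled signal of 370, with 108 for replicate 1 and 255 for replicate 2 (FBgn0037359, summit 3R:5654996, peak 5654922 to 5655105). It ranked 188 among the 3087 pooled peaks. MED30, placed in the same region of the complex, had a pooled signal of 189, with 85.0 and 98.4 for replicates 1 and 2 (FBgn0035149, summit 3L:654212). The third gene of this region, MED28, had no pooled peak and a highest ranked signal of 10.5.

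Among 7 genes of the head module, MED17 alone had a peak (14.3%), a share near the 16.1% of all protein-coding genes. It encodes the central scaffold of the head. The pooled signal was 298, and the replicates gave 101 and 203 (FBgn0038578, summit 3R:18188978, peak 18188957 to 18189057). MED6, MED8, MED11, MED18, MED20 and MED22 had none in the pooled list.

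In the middle module, which contacts the polymerase, 3 of 8 genes had a peak (37.5%), against 16.1% of all genes. MED7 reached 219 pooled, 79.2 for replicate 1 and 140 for replicate 2 (FBgn0051390, summit 3R:10761110). MED31, a small conserved subunit that binds MED7, had 127 in the pooled list and 80.0 in replicate 2. Its overlapping candidate in replicate 1 had a signal of 33.5 and a score of 253, under the lowest score of 830 in the thresholded lists (FBgn0037262, summit 3R:4641711). MED4 went the other way. It had 114 in the pooled list and 57.0 in replicate 1 with a score of 878, and in replicate 2 a signal of 58.3 with a score of 634, under the threshold (FBgn0035754, summit 3L:7250630).

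In the tail module, the part that activators contact, 1 of 5 genes had a peak in the pooled list (20%), near the 16.1% of all genes. MED16 reached 81.6 pooled, 27.0 for replicate 1 and 52.0 for replicate 2 (FBgn0034707, summit 2R:22183106). The overlapping peak in the list of replicate 2 was a different one, with a signal of 58.8 and a summit 194 bp away, so no peak at the same summit passed in either replicate. MED14, the backbone of the complex, and MED26, which is linked to elongation factors in mammals, had no pooled peak.

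Among the TAF genes, Taf5 stood at the top. It encodes the WD40 subunit of the TFIID core. Signals were 341 pooled, 130 for replicate 1 and 186 for replicate 2, rank 218 of the pooled peaks (FBgn0010356, summit 2R:10879833, peak 10879708 to 10879942). No other Taf gene had its peak in both replicate lists.

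The other TAF peaks were held by replicate 2 or by the pooled list alone. Taf2, whose protein contacts the initiator element, had a pooled signal of 147, with 23.4 for replicate 1 and 129 for replicate 2 (FBgn0011836, summit 3L:9888806). A weaker peak that overlaps it had a signal of 66.3 at 324 bp from the start. Taf4, a histone-fold subunit of the core, had 114 in the pooled list and 79.3 in replicate 2, with no overlapping candidate in the ranked list of replicate 1 (FBgn0010280, summit 3L:16113629). Taf11, the histone-fold partner of Taf13, had a pooled signal of 82.5, with 6.59 for replicate 1 and 71.8 for replicate 2 (FBgn0011291, summit 2L:9763288). Taf7, which in mammals restrains the acetyltransferase activity of TAF1, had a pooled signal of 75.6, with 18.1 and 49.9 for replicates 1 and 2, and a peak in neither replicate list (FBgn0024909, summit 3R:7907546).

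**Figure D3:**
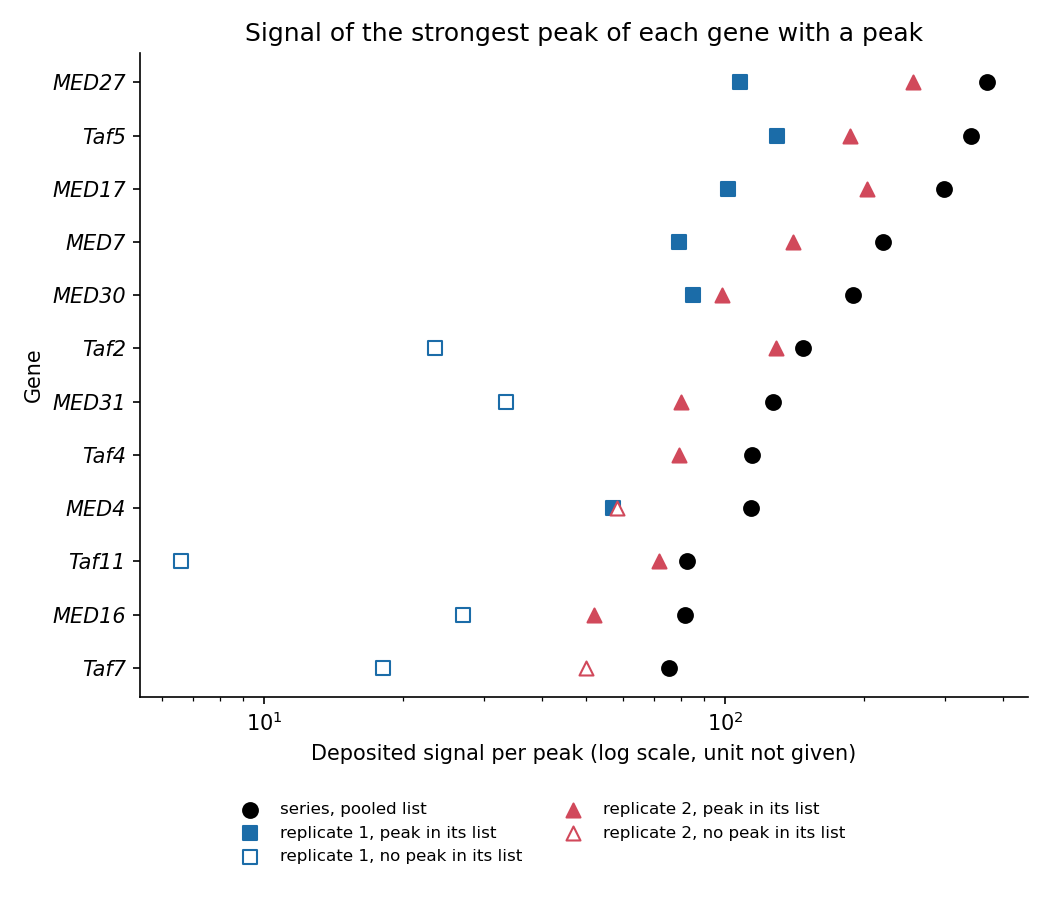
Deposited signal per peak (horizontal log axis, no stated unit) of the strongest peak of each gene in the pooled list (circles) and of the overlapping candidate with the nearest summit in replicate 1 (squares) and replicate 2 (triangles), filled where a peak in that replicate's thresholded list overlaps. The top 5 genes are filled in both replicates, and Taf4 has no candidate in replicate 1.

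Altogether 5 of the 12 genes had their strongest peak in the lists of both replicates (41.7%), 1 in that of replicate 1 alone, 5 in that of replicate 2 alone and 1 in neither. Over all protein-coding genes with a peak these shares were 49.5% in both, 4.73% in replicate 1 alone, 34.6% in replicate 2 alone and 11.1% in neither. The 5 in both, MED27, Taf5, MED17, MED7 and MED30, were also the 5 of highest pooled signal. The strongest peaks of the 12 genes had a median signal of 137, against 134 over all protein-coding genes with a peak, and ran from 75.6 to 370. Of these 12 peaks, 9 were above the median of the pooled list (75%), against 65.1% for all protein-coding genes with a peak.

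The other 28 genes had no pooled summit within 1 kb, and 21 of them had at least 1 candidate in the ranked list of the series. That list holds 133008 candidates on the main arms, against 3087 peaks in the pooled list. The share of all protein-coding genes with such a candidate was not counted, so the 21 cannot be set against it. The highest candidate signals of these 21 ran from 10.1 to 278, with a median of 26.1. MED15, a tail subunit that activators bind, stood apart with a candidate of signal 278 and score 1000 at 565 bp upstream (FBgn0027592, summit 2L:472448). Its overlapping candidates had a signal of 115 in replicate 1 and 165 in replicate 2, each with a score of 1000. No thresholded list of the series or of either replicate held this peak. It lay between MED15 and CG4297, 248 bp from a start of the latter. It is 1 of 111 candidates on the main arms that reached the lowest score of the pooled list and were not in it, for which no reason is given in the sources used here. Ranked peaks at that score gave 13 genes (32.5%) against 16.4% of all genes.

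MED8 was the next, with a candidate of signal 83.9 at 218 bp upstream. Its score was 480 in the ranked list behind the pooled list and 917 in the one behind the conservative list, so it was a peak in the conservative list only. After it came Taf13 with a signal of 55.6, MED25 with 36.6 and Taf12 with 35.5. MED1, MED10, MED11, MED21, MED22, MED26 and Taf3 had no candidate within 1 kb at all.

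The sequence under these summits held few G and C bases. Within 50 bp of the summit, GC content ran from 15.8% (Taf5) to 41.6% (MED16), with a median of 26.7%. Over the 1795 pooled peaks at protein-coding starts the median was 32.7%, with a range of 10.9 to 74.3%. The dip was narrow: the mean over the 12 peaks was 26.8% at the summit, 39.9 and 36.8% at 100 bp to either side, and 49.5 and 46.7% at 250 bp. This difference was not tested.

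**Figure D4:**
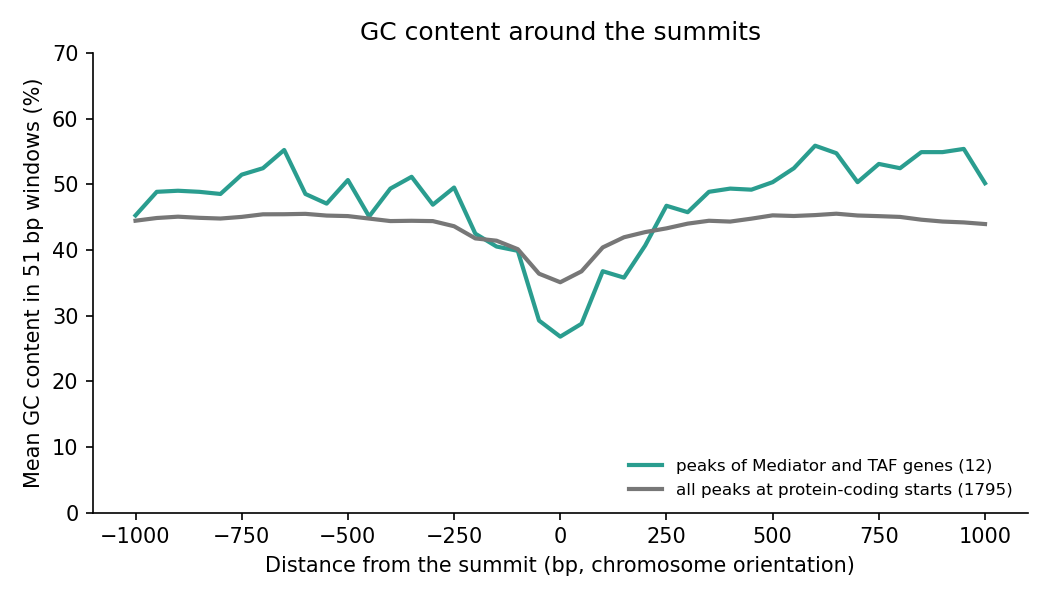
Mean GC content in windows of 51 bp (vertical axis, percent) by distance from the summit (horizontal axis, bp), for the 12 strongest peaks of Mediator and TAF genes and for all 1795 pooled peaks at protein-coding starts. Both curves dip at the summit, to 26.8% and 35.1%.

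For 7 motifs searched on both strands, matches at the 12 summits were few. The Klu/EGR letters GTGGGCG or GTGGGTG lay within 50 bp of 0 of 12 summits, and of 4.79% of all summits at protein-coding starts. TATAAA lay at 4 of 12 (MED27, MED17, MED31 and Taf5), against 21.5%. AAAAAAA lay at 3 (MED27, MED4 and Taf4), against 12.5%, and GAGAG, the letters bound by the GAGA factor, at 1 (MED4), against 10.8%. The replication-related element TATCGATA (2.28%), the M1BP element GGTCACACT (0.669%) and the E-box CAGCTG (4.29%) lay at none. With 12 summits, a missing match says only that these letters are not in these windows.

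The promoters of Mediator and TAF genes as a whole, from 250 bp before to 50 bp after the outermost start, were searched for the same letters. GGTCACACT was present in 12 of 40 (30%), against 6.05% of all 13945 promoters. It was in the promoters of 2 of the 12 genes with a peak and of 10 of the 28 without. This split is by gene, and a gene's summit need not lie in the searched window. The strongest summit of MED31 lay 252 bp upstream of the outermost start, just outside the window. Those of Taf4 and Taf7 lay 417 and 213 bp downstream of it, also outside. TATCGATA was in 8 of 40 (20%), against 9.36%, 2 in genes with a peak and 6 in genes without. GTGGGCG or GTGGGTG was in 2 of 40 (5%), against 6.02%, both in genes without a peak. GAGAG was in 17.5% against 29.7%, the E-box CAGCTG in 15% against 17.7%, TATAAA in 52.5% against 45.8% and the run AAAAAAA in 32.5% against 26.7%. Some of these letters can overlap in A- and T-rich DNA, and no position relative to the start was required.

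Other genes of transcription initiation and coactivation were counted in the same way, in lists written with earlier results known. Of 58 related genes in 7 lists, 15 had a peak (25.9%), against 16.1% of all genes. RNA polymerase II subunits had 4 of 12, with Polr2B (signal 410, 76 bp upstream) and Polr2H (signal 296, nearer to CG11247) the strongest. TFIIH had 3 of 10, with Ssl1 (signal 1021, nearer to Chro) and mrn (signal 236). SAGA genes other than TAFs had 6 of 17, with the acetyltransferase Gcn5 (signal 273) and wda (signal 192, nearer to Pex11c). The Mediator kinase module had 1 of 4, skd (signal 117, nearer to Pdss2), and TFIIA, TFIIB, TFIIE and TFIIF had 1 of 8, TfIIA-L (signal 147, nearer to pll). The 3 genes of the TBP family and the 4 TAF genes of other symbols had none.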

How the data were processed

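Anti-GFP ChIP-seq peaks of 2 biological replicates were used, numbered per the labels. Per the deposited text files, the 8 peak lists are in dm6 and rank or threshold peaks by irreproducible discovery rate. No source used here names the aligner, the peak caller or a version. Scores, as deposited, are whole numbers up to 1000, and 830 was the lowest in each thresholded list. The deposited signal (column 7) is a value per peak of unstated scale. The lists give no read counts, so depth is unknown.

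Summits are the peak start plus the offset in the last column, counted from 1. No peak ended beyond its arm in the RefSeq genome used for sequences. Starts were those of Ensembl release 115 (BDGP 6.54), without transposon genes. Support in a replicate meant an overlap of at least 1 bp. Motif windows were cut from the genome by script. RefSeq promoter and protein tables were not used here. Of 62 related symbols, 3 were already among the genes described and 1 was not matched. Gene assignment and overlap were checked on peaks placed at known positions. Python 3.11.15, numpy 2.4.6, pandas 2.3.3 and matplotlib 3.10.9 were used.

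The genes, lists and motifs were chosen with earlier results of these data known, and no p-value was computed. Named genes are all with a pooled peak, those with one at 1 to 2 kb, the 5 others with the highest candidate signal and up to 2 per related list. Other genes without a pooled peak are named outside this rule, after their values were seen, to complete a module, a chromosome or the count without a candidate. Module assignments were written after the values were seen.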

Additional observations from a re-analysis of the deposited data

How the results depend on the processing

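With 1 group and peaks only, differences from the alternatives are counts with no test. No paired analysis was possible because there is 1 group. Leaving out a replicate gave 6 and 10 genes with a peak (12 with both), 5 and 6 MED genes (7), and 1 and 4 Taf genes (5), and a median distance of 123 and 144 bp (113). Of the 15 Taf genes, the count was 1 in the conservative list (13.1% of all genes) and 3 above the median signal (10.5%). It was 3 by the nearest start (11.5%) and 8 within 2 kb (19.9%), where Taf10 and Taf10b share their peaks. By the ranked lists of the replicates, at any score, 11 genes had a candidate in both (5 in the thresholded lists). Those ranked lists hold 116399 candidates for replicate 1 and 73923 for replicate 2 on the main arms. The same count over all genes with a peak was not made, so the rise is no measure of replicate support. The median signal was 204 in the conservative list and 189 within 2 kb (137), and the median distance was 133 bp in the conservative list. The median signal and distance were called moved past the SD of both replicates' medians, 14.4 and 14.8 bp. Those medians came from 6 and 10 genes, with signals from each replicate's own list. This SD is therefore a working limit and does not measure the spread of the pooled or conservative medians. Windows of 100 bp added 1 gene each for TATCGATA (MED17), CAGCTG (MED30), TATAAA (Taf11) and AAAAAAA (Taf2). The count over ranked peaks at the threshold score was chosen after seeing the data. The remaining counts stayed within 1.5 times the main one, and the remaining medians within that SD. The 7 genes shared by the pooled and conservative lists had the same signal in each, so that median signal moved with the genes counted. Why genes left or entered a list was not tested, and neither was the cause of the other changes. Unknown depth limits what a missing peak shows.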
